A study of Homo sapiens with 23 samples.

Results

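Acetylation of histone H4 at lysine 12 (H4K12ac) was compared between SW480 cells given sodium propionate (NaPr) and untreated SW480 cells, by chromatin immunoprecipitation followed by sequencing (ChIP-seq). SW480 cells are an established epithelial cell line from a human colorectal tumour. The libraries were chosen by their sample labels: 2 replicates treated with 10 mM NaPr for 12 to 16 h and 2 untreated replicates, so 4 of the 23 libraries of the series, of which 20 were immunoprecipitated and 3 were inputs. The labels do not say whether replicates came from separate cultures, so tests measure the spread between these libraries, which may be technical. Each library is represented by the list of enriched regions that the authors called in it alone, and the 4 lists together hold 674653 of the 2187390 regions in the series.

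Acetyl groups on the tail of H4 neutralise the charge of lysine, loosen contacts between nucleosomes and are bound by bromodomain proteins. H4K12ac is placed on new H4 by HAT1 and on chromatin by acetyltransferases such as KAT5 and KAT7, and is removed by histone deacetylases. In human cells it lies on both sides of the start sites of active genes. Propionate is a short-chain fatty acid of the gut microbiota, and cells can convert it to propionyl-CoA, a donor for propionylation of the same lysines.

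Promoter regions of H4K12ac were far fewer in NaPr than in untreated cells. A promoter window was taken as 1 kb either side of the 5′ end of a gene, for 20033 protein-coding and 18866 long non-coding RNA (lncRNA) genes. With all deposited regions, 6619 and 5254 protein-coding windows held a region in the NaPr libraries, against 12731 and 12698 in the untreated libraries. The NaPr libraries lay below both untreated libraries and the groups did not overlap. The untreated lists were also longer (208823 and 191194 regions against 144275 and 130361), so each list was also reduced to its 130361 regions with the highest −log10 p, referred to as equal numbers. The windows held then numbered 6258 and 5254 in NaPr against 11982 and 12072 in untreated cells, that is 31.2% and 26.2% against 59.8% and 60.3% of protein-coding genes. With 2 libraries a group, a two-sided exact permutation test cannot go below p = 0.333, and it gave 0.333 for this difference with all regions and with equal numbers.

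Replicates differed in how well they repeated each other. The untreated libraries shared 11264 windows with equal numbers, 94.0% and 93.3% of those in each. The NaPr libraries shared 3583, 57.3% and 68.2%. In base pairs, the Jaccard index (shared over union, all regions) was 0.314 for the untreated pair and 0.114 for the NaPr pair, and NaPr replicate 1 overlapped the untreated libraries by 0.127 and 0.128, no less than its own replicate. Windows held in NaPr were mostly held in untreated cells too: 89.5% to 90.8% of those in a NaPr library were in any given untreated one. Depth was approximated by the lowest local background solved from the lists. This background was 25.1 and 28.7 fragments per kb in NaPr and 38.5 and 32.0 in untreated cells, so it moved with the groups. It may differ from sequencing depth. Its part in the results was not tested. The comparisons at equal numbers and at a fixed fold given here do not separate it from the treatment. With equal numbers the lowest −log10 p kept was 2.97 and 2.00 in NaPr and 4.47 and 4.16 in untreated cells.

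Enrichment at promoters was lower in NaPr in width and height as well as in number. Of all summits, 6.92% and 5.95% lay in a promoter window in NaPr and 11.9% and 12.7% in untreated cells. With equal numbers the shares were 7.10% and 5.95% against 16.3% and 16.3%. Regions with a summit in a window had a median width of 306 and 281 bp in NaPr and 572 and 538 bp in untreated cells (equal numbers), whereas regions elsewhere had 254 and 244 bp against 316 and 297 bp. Their median fold, the fragment pileup over the local background, was 2.55 and 2.41 against 3.14 and 3.19 at windows and 2.64 and 2.48 against 2.69 and 2.75 elsewhere. Regions of 1 kb or wider numbered 1751 and 1058 against 12448 and 10351. The groups did not overlap in these values, and each gave an exact p of 0.333, the smallest possible. With all regions the median fold elsewhere was 2.58 and 2.48 in NaPr and 2.44 and 2.52 in untreated cells, so there the groups overlapped (exact p = 0.667) and the NaPr mean was higher.

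Along genes, the untreated libraries had a shoulder on each side of the start and a dip on it. With equal numbers, 38.5% and 39.3% of protein-coding starts were covered at 200 bp downstream, 17.5% and 18.5% at the start itself, and 4.15% and 3.95% at 5 kb upstream. The NaPr libraries kept this shape at a lower level. Their highest coverage was 8.87% and 6.87% and their coverage 5 kb upstream was 1.84% and 1.59%. The peak stood 3.86 and 3.52 times above the mean coverage 5 kb to either side in NaPr, and 7.71 and 8.23 times in untreated cells.

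**Figure D1:**
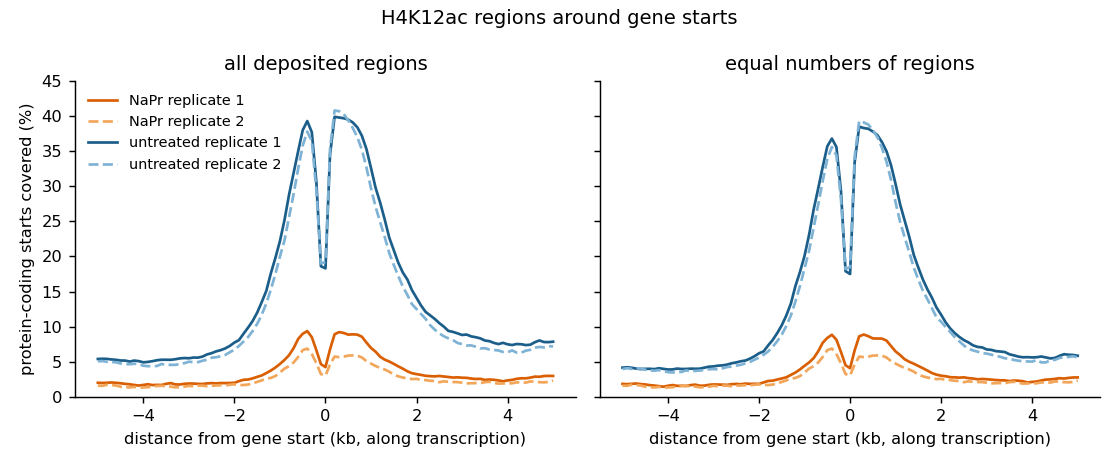
Percentage of protein-coding gene starts covered by an H4K12ac region (y axis) at distances of 5 kb upstream to 5 kb downstream (x axis, kb), one line per library, with all regions on the left and equal numbers on the right. Both untreated lines reach about the same height, 38.5% and 39.3% on the right, and both NaPr lines stay under 10%.

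A window was called lost when both untreated libraries and neither NaPr library held a region in it, and gained in the opposite case. With equal numbers, 4542 of 20033 protein-coding windows were lost (22.7%), 79 were gained (0.394%) and 3437 were held in all 4 libraries. With all regions, 4830 were lost (24.1%), 60 were gained (0.300%) and 3611 were held in all 4. The lost windows were much the same ones, since 4377 were called both ways, 96.4% of those at equal numbers and 90.6% of those with all regions. For lncRNA genes with equal numbers, 1707 windows were lost, 142 gained and 1593 held in all 4. In a comparison added after the data were seen, only regions with a fold of at least 3 were used. At the lowest background of each library this size corresponds to a −log10 p of 5.11 to 6.70, above the lowest value in the lists, 2.00. It gave 6193 lost protein-coding windows (30.9%) and 10 gained (0.0499%), of which 2557 and 5 were also called at equal numbers. Over all 38899 genes with equal numbers, 6249 windows were lost and 221 gained, and the gained count was 1296 without NaPr replicate 1 and 1287 without NaPr replicate 2.

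Windows held in all 4 libraries were also weaker in NaPr. Of these 3611 windows, 3233 (89.5%) had a highest fold that was lower in both NaPr libraries than in both untreated libraries, and 44 (1.22%) had the reverse. The median over these windows was 2.78 and 2.52 in NaPr and 5.04 and 5.17 in untreated cells.

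Whether a window was kept went with how enriched it was in untreated cells. The windows held in both untreated libraries (all regions) were sorted by the lower of their highest folds in these 2 libraries. Below 2, 68.8% of 337 windows had no region in either NaPr library and 5.34% had one in both. Between 4 and 6, the shares were 23.8% and 45.3% of 2995 windows. At 8 or more, they were 3.13% and 91.9% of 447 windows. The share lost among windows held in both untreated libraries, 40.3% over the genome with equal numbers, ranged from 34.0% on chromosome 7 to 52.6% on chromosome 19, so it was not limited to a few chromosomes.

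**Figure D2:**
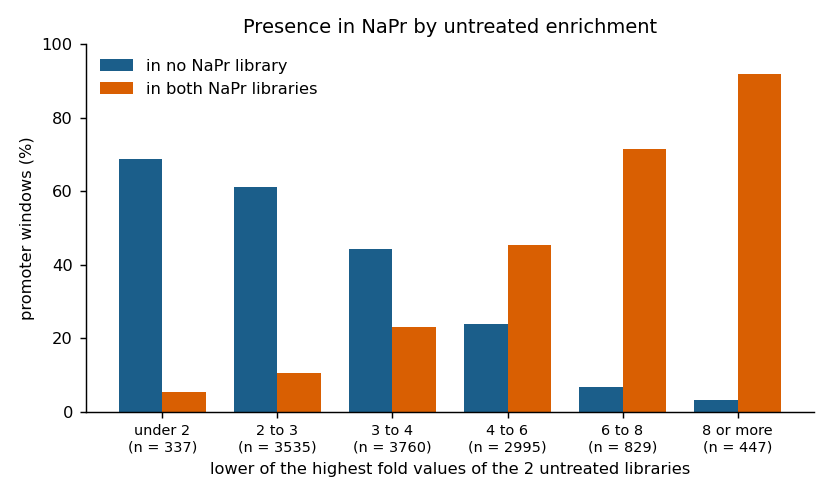
Percentage of protein-coding promoter windows (y axis) found in no NaPr library (blue) or in both (orange), by the lower of the highest folds in the 2 untreated libraries (x axis), with the number of windows under each pair of bars. The blue bars go from 68.8% to 3.13% and the orange bars from 5.34% to 91.9%.

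The base composition of these classes is shown by 3 lost and 3 gained promoters. They are the top genes of each direction by −log10 p that had a RefSeq promoter (GRCh38.p14) with its start within 1 kb of the GENCODE start, and span 250 bases before to 50 after the RefSeq start. They read 5′ to 3′ on the strand of the gene, and capitals mark CG dinucleotides, the CpG sites that are clustered in CpG island promoters. The lost ones are LAPTM4A (chr2:20051579-20051878, minus strand), RNASEH2B (chr13:50909428-50909727, plus strand) and HIRIP3 (chr16:29996047-29996346, minus strand). The gained ones are RAP1A (chr1:111541759-111542058, plus strand), SRPX2 (chrX:100643949-100644248, plus strand) and UCP3 (chr11:74009036-74009335, minus strand).
LAPTM4A: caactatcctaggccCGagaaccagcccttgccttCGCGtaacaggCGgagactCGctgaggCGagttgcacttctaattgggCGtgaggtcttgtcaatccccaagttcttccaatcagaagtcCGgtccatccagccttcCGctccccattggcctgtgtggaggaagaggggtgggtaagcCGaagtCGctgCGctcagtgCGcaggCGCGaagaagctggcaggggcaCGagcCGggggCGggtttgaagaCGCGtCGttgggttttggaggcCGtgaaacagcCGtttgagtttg
RNASEH2B: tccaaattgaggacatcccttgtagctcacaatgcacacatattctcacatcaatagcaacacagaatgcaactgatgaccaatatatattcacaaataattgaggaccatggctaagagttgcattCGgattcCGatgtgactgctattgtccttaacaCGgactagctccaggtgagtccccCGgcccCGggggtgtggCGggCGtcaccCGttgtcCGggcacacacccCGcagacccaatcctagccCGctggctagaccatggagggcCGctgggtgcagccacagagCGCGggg
HIRIP3: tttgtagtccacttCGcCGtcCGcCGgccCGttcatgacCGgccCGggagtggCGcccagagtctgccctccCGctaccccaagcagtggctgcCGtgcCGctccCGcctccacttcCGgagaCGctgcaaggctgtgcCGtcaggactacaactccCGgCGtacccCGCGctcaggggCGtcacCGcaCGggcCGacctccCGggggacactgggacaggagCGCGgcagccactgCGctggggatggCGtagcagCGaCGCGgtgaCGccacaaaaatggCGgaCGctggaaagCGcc
RAP1A: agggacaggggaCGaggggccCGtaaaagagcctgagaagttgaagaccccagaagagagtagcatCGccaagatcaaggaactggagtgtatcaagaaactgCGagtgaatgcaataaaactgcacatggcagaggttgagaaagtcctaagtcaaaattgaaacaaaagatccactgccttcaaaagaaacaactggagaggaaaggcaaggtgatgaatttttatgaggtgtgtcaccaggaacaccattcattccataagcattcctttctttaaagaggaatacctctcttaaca
SRPX2: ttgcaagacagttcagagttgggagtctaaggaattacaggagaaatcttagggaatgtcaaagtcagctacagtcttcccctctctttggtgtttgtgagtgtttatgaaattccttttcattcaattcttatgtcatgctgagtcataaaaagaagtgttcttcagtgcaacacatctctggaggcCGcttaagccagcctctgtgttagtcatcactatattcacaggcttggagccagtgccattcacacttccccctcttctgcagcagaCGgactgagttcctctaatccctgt
UCP3: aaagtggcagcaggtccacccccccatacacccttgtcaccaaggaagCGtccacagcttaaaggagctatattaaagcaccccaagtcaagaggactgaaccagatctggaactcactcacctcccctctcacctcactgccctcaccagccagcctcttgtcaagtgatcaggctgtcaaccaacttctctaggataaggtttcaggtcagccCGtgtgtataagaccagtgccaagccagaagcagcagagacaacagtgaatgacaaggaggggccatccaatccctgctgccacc

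The 3 lost promoters held 23, 14 and 35 CpG sites and the 3 gained promoters 4, 2 and 2, where the median of 27305 RefSeq promoters was 14.0. The classes as a whole differed in the same direction (equal numbers, whole 2 kb windows of hg38). The median ratio of observed to expected CpG was 0.682 in lost, 0.707 in windows held in all 4, 0.246 in gained and 0.315 in windows held in none, against 0.613 in all protein-coding windows. Median GC content was 58.2% in lost and 55.8% in windows held in all 4, 48.5% in gained and 49.7% in those held in none. Lost windows were thus CpG-rich like those held in all 4, and gained windows had the base composition of windows without the mark.

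Short motifs were searched on both strands from 250 bases before to 50 after the GENCODE start. The GC box (GGGCGG) was in 70.1% of lost, 62.8% of held and 21.5% of gained promoters, against 30.6% of those held in none and 52.4% of all. The ETS motif (CCGGAAG) was in 16.0% of lost and 21.4% of held promoters, in 0 of 79 gained ones, in 3.61% of those held in none and in 11.9% of all. The TATA box (TATAAA) was in 5.28% of lost, 7.01% of held and 16.5% of gained promoters, against 18.8% of those held in none and 10.8% of all. The AP-1 motif (TGANTCA) was in 3.63% of lost and 16.5% of gained promoters, which are 13 gained promoters, against 8.52% of those held in none and 6.38% of all. These shares describe letters in the windows and carry no test.

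Lost windows mostly held regions of other acyl marks in the NaPr condition. With equal numbers, 98.2% and 74.9% of them held a region of acetylated H3K18 (H3K18ac) in the 2 NaPr libraries and 97.8% and 97.9% in the untreated libraries. A region of propionylated H4K12 (H4K12pr), mapped only under NaPr, was in 83.1% and 75% of them. Over all protein-coding windows the shares were 65.6%, 54.2%, 64.3% and 68.0% for H3K18ac and 61.2% and 53.7% for H4K12pr. Windows held in all 4 H4K12ac libraries had higher shares than lost ones. These were 99.7%, 95.7%, 99.4% and 99.4% for H3K18ac and 96.4% and 94.6% for H4K12pr. By the same rule with all regions, H3K18ac had 261 lost, 83 gained and 9977 windows held in all 4, beside 4830, 60 and 3611 for H4K12ac. The H3K18ac lists held 202787 and 95194 regions in NaPr and 76888 and 155103 in untreated cells. Their lengths thus did not follow the groups as those of H4K12ac did, and the marks were not compared at equal numbers. H3K18ac NaPr replicate 1 is to be read with care, because its base-pair overlap with the untreated H4K12ac libraries (0.314 and 0.306) was above that with its own replicate (0.202). Of the gained windows, 31.6% and 26.6% held H3K18ac and 36.7% and 21.5% held H4K12pr under NaPr.

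The strongest lost windows belonged to genes of varied function. ZNF524, a zinc finger protein (chromosome 19, 55600022 to 55603138), had a highest −log10 p of 126 and 125 and folds of 8.63 and 8.54 in untreated cells, and no region in NaPr. HIRIP3, which binds the histone chaperone HIRA (chromosome 16, 29992330 to 29996074), had folds of 9.59 and 8.92 and none in NaPr. Its window is shared with INO80E, a subunit of the INO80 chromatin remodeller that is transcribed the other way, so both genes were called from the same region of 1233 bp. RNASEH2B, a subunit of the ribonuclease that removes RNA from DNA, had folds of 9.31 and 9.28. LAPTM4A, a lysosomal membrane protein, had 6.67 and 7.83, and PPM1B, a protein phosphatase, 5.65 and 7.80. GTF2IRD2B had 16.8 and 17.5, the highest folds of the 8, and is uncertain because near-identical copies of this gene lie nearby on chromosome 7.

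None of these 8 windows had a region in either NaPr library, and all 8 were also called with all regions and with a fold of at least 3. Counting every annotated transcript start of a gene in place of its 5′ end left 5 of 8, with LAPTM4A and RNASEH2B among those not called. Leaving out regions that touch input peaks ended the call of RNASEH2B, and the window of LAPTM4A touched a region of the untreated input. Windows were shared with FIZ1 for ZNF524, and with an antisense or divergent transcript for LAPTM4A, RNASEH2B and PPM1B, so a region there cannot be given to one gene. Of the 8 windows, 6 held H4K12pr in both libraries, and all 8 held H3K18ac in the 4 libraries.

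The strongest gained windows were much weaker than the lost ones. PIRT, a regulator of sensory ion channels (chromosome 17, 10822470 to 10838087), had −log10 p of 7.95 and 8.0 and folds of 3.75 and 3.58 in NaPr, and none in untreated cells. RAP1A, a small GTPase of the Ras family, had folds of 3.61 and 3.05, and SRPX2, a secreted protein, 3.53 and 3.21. WNT8B, a Wnt ligand, had 3.02 and 3.57. ARL14, an ADP-ribosylation factor-like GTPase, had 2.61 and 2.36, and KBTBD12 had 2.31 and 2.40. UCP3, a mitochondrial uncoupling protein, and CLEC2B, a lectin of lymphocytes, had 3.17 and 3.36, and 2.60 and 2.78. These last 2 genes were not called with all regions, where a weaker region (fold 1.99 and 1.93) was present in untreated replicate 2, and UCP3 was called again with a fold of at least 3. The windows of SRPX2 and UCP3 also touched a region called in the NaPr input, and that of CLEC2B a region of the untreated input. Leaving out regions at input peaks ended the calls of SRPX2 and CLEC2B with equal numbers. RAP1A and UCP3 were not called when every transcript start was counted. RAP1A and KBTBD12 held H3K18ac in all 4 libraries, and KBTBD12 and ARL14 held H4K12pr in both. PIRT and WNT8B held neither mark in any of these libraries, and the others held at least one of the marks in some. Of the 8, 3 (PIRT, RAP1A and SRPX2) were also called with the 20000 strongest regions of each library.

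Coverage of whole genes gave the same direction. Body coverage is the percentage of a gene, with 1 kb either side, that lies under regions, and its mean over protein-coding genes was 3.10% and 2.61% in NaPr and 8.54% and 8.05% in untreated cells with equal numbers. A body was called lost or gained when the closest libraries of the groups differed by at least 5 percentage points. With equal numbers, 4826 protein-coding bodies were lost (24.1%) and 20 gained (0.0998%). With all regions, 6294 were lost (31.4%) and 11 gained (0.0549%).

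A limma fit of log2(coverage + 1 percentage point) over all genes with a mean of at least 1% gave the test. With equal numbers, 6267 of 22516 genes were lower in NaPr at an adjusted p under 0.05 (27.8%) and 280 were higher (1.24%). With all regions, 8631 of 24289 were lower (35.5%) and 191 higher (0.786%). With equal numbers the lower count was 2828 without untreated replicate 1 and 2784 without untreated replicate 2, and the higher count 930 without NaPr replicate 1, 823 without NaPr replicate 2, and 108 and 109 without an untreated library. The median difference over all genes was −1.12 (equal numbers) and −1.32 (all regions) on this log2 scale, and the values of single genes and lists are to be read against it. For a gene without coverage in either NaPr library, the size of the difference depends on the 1 point added. The NaPr libraries then add no spread, and such a gene passes the filter only through the untreated libraries. Its small SE and adjusted p are to be read with this. Among protein-coding genes with a lost window, 1948 of 4228 fitted bodies were lower and 0 higher. Among those with a window held in all 4, 833 of 3349 were lower and 2 higher, and among those with a gained window 2 of 66 were lower and 12 higher (equal numbers). Windows lie inside the bodies, so these counts are not independent.

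Among protein-coding genes of 10 kb or longer, the 6 widest losses fell in genes of 11.2 to 39.5 kb. The median protein-coding gene was 27.5 kb long. Bodies lost by 5 points made up 24.1% of genes of any size and 3.49% of those of 100 kb or longer (equal numbers). HOXA9, a homeodomain transcription factor of the body axis (chromosome 7, 27162438 to 27175180), was covered over 9.58% and 4.84% in NaPr and 87.3% and 82.7% in untreated cells, a difference of −3.45 ± 0.36 (SE, adjusted p = 0.0122). The protein-coding gene ENSG00000257184, which spans the same locus (chromosome 7, 27163535 to 27180013), went from 88.7% and 81.7% to 7.64% and 5.07%. NSMF, a synaptic signalling protein, had 22.6% and 17.5% against 79.1% and 76.9% (−1.92 ± 0.18, adjusted p = 0.0101). SLC7A5, a transporter of large neutral amino acids (chromosome 16, 87830023 to 87869507), had 3.07% and 2.50% against 52.5% and 54.4% (−3.85 ± 0.23, adjusted p = 0.00379). LZTS2, a regulator of beta-catenin export, had 1.13% and 3.19% against 52.6% and 54.3% (−4.19 ± 0.43, adjusted p = 0.0114). ENSG00000263620 on chromosome 17 had 2.61% and 2.25% against 54.2% and 58.6%, and its window, shared with VAMP2, was held in all 4 libraries. In all 6 the groups lay far apart, but only ENSG00000263620 was still called by limma when either untreated library was left out, which leaves 1 untreated library that is assumed to vary like the NaPr pair. NSMF was not called without regions that touch input peaks.

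Of protein-coding genes of 10 kb or longer, 3 were gained. DHRS2, a short-chain dehydrogenase (chromosome 14, 23630115 to 23645639), was covered over 7.55% and 8.81% in NaPr and 0% and 0% in untreated cells, a difference of 3.20 ± 0.23 on the log2 scale with 1 point added (limma, adjusted p = 0.00522). No library held a region in its promoter window, and leaving out either untreated library ended the call, as did using the 20000 strongest regions. PSG8, a pregnancy-specific glycoprotein, had 15.4% and 15.2% against 2.26% and 6.80% (adjusted p = 0.0862), and ZNF554, a zinc finger protein, 20.4% and 18.7% against 11.9% and 12.2% (adjusted p = 0.0972). Neither passed the test with equal numbers, although limma called both with the 20000 strongest regions.

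The HOX genes, which set position along the body axis and lie in 4 clusters, divided by cluster. Of the windows held in both untreated libraries, 9 of 10 were lost in HOXA, 0 of 8 in HOXB, 5 of 8 in HOXC and 3 of 4 in HOXD. Windows held in all 4 libraries numbered 0 in HOXA, 7 in HOXB, 2 in HOXC and 0 in HOXD. HOXA bodies had a median coverage of 0% (lowest 0%, highest 9.58%) over the NaPr libraries and of 49.6% (1.41% to 87.3%) over the untreated ones. HOXB bodies had 22.2% (0% to 52.2%) against 57.6% (0% to 88.7%). All 11 HOXA bodies were lower in both NaPr libraries than in both untreated ones and 10 passed the limma test, against 9 and 5 of 10 in HOXB. HOXB4 had 52.2% and 35.8% against 69.9% and 62.8% (−0.60 ± 0.23, adjusted p = 0.127), while HOXA5 had 0% and 0% against 54.5% and 52.5% (−5.77 ± 0.22, adjusted p = 0.00279). Neighbouring HOX genes share regions, so a cluster counts as few independent loci, and the difference between clusters was not tested.

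**Figure D3:**
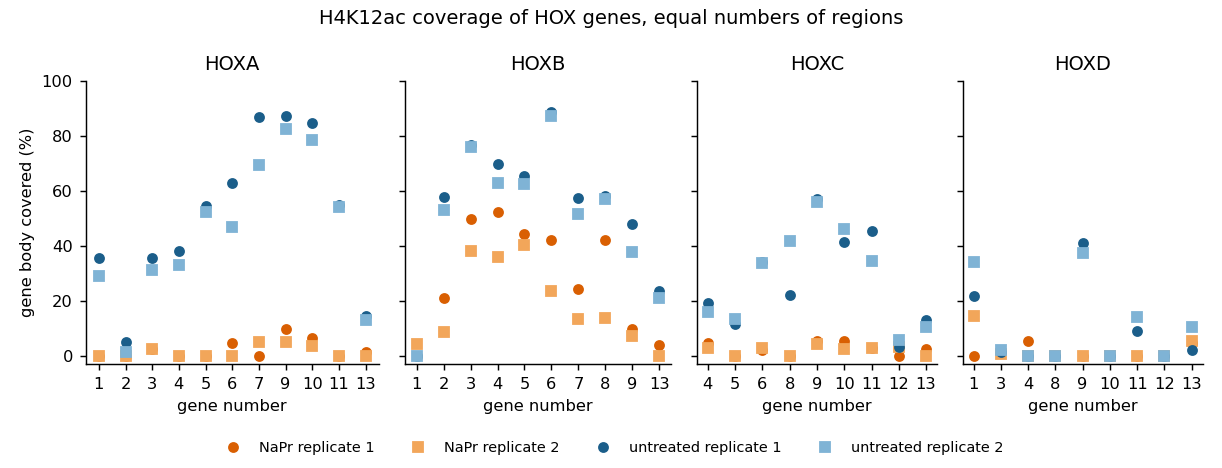
Percentage of each HOX gene body covered by H4K12ac regions (y axis, equal numbers) by gene number within each cluster (x axis), one point per library. HOXA bodies reach 87.3% in untreated cells and stay under 10% in NaPr, while several HOXB bodies keep 20% or more in NaPr.

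Other gene lists are given by their lost share among windows held in both untreated libraries (equal numbers), where the share over all protein-coding genes was 40.3%, 4092 of 14042 fitted bodies were lower and the median body difference was −1.10. Genes of the Wnt and beta-catenin pathway, which drives growth in colorectal cancer, lost 12 of 22 such windows, and 12 of 23 fitted bodies were lower. AXIN2, a negative regulator and target of the pathway, had folds of 4.88 and 5.17 in untreated cells and no region in NaPr, and a body of 13.9% and 9.99% against 69.8% and 62.1% (−2.38 ± 0.24, adjusted p = 0.0110). DVL2, which relays the signal from Frizzled receptors, had 0% and 0% against 19.0% and 22.9% (−4.45 ± 0.21, adjusted p = 0.00279). CCND1, which drives entry into the cell cycle, was held in all 4 libraries, with folds of 4.31 and 3.82 against 7.24 and 6.81. Its body did not pass the test (adjusted p = 0.108).

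Genes of the cell cycle lost 13 of 28 windows, and 13 of 31 bodies were lower. AURKB, a mitotic kinase, had a body of 0% and 0% against 43.0% and 35.8% (−5.33 ± 0.23, adjusted p = 0.00279), and MCM7, a subunit of the replicative helicase, 6.85% and 6.82% against 69.3% and 67.7% (−3.15 ± 0.18, adjusted p = 0.00345). CDKN1A, the p21 inhibitor of cyclin-dependent kinases, kept its window, with folds of 2.62 and 2.88 against 3.00 and 3.34, while its body had 9.23% and 6.31% against 48.9% and 43.8% (−2.45 ± 0.27, adjusted p = 0.0133). The genes for histone H4 itself lost 3 of 11 windows and 7 of 11 bodies were lower, with a median difference of −3.72. H4C4 had 0% and 0% against 57.4% and 57.0% (−5.86 ± 0.22, adjusted p = 0.00279). These genes are near-identical in their coding parts, so fragments within them may be placed on the wrong copy.

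Enzymes that remove histone acyl groups lost 7 of 15 windows and 8 of 17 bodies were lower. HDAC10 had a body of 0% and 0% against 20.2% and 16.6% (−4.27 ± 0.21, adjusted p = 0.00284), and HDAC6 0.898% and 0.703% against 9.67% and 7.86% (−2.44 ± 0.22, adjusted p = 0.00878). HDAC1 had folds of 3.70 and 3.54 in untreated cells and no region in NaPr, with a body that did not pass (adjusted p = 0.0561). Enzymes that add acyl groups lost 3 of 11 windows and 2 of 13 bodies were lower. EP300 had folds of 4.15 and 3.36 against 7.34 and 11.4, and KAT5 2.82 and 2.55 against 8.45 and 6.81, so both were held in all 4 with lower folds in NaPr. CREBBP, a paralog of EP300, had 5.94 and 7.41 in untreated cells and no region in NaPr. The bromodomain and YEATS readers of acylated histones lost 6 of 17 windows, and 1 of 18 bodies was lower. BRD2 stood at folds of 11.1 and 7.88 against 12.0 and 17.1.

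Genes for uptake and metabolism of propionate lost 4 of 16 windows, and 5 of 17 bodies were lower. SLC16A3, a monocarboxylate transporter, was held in all 4 with folds of 5.51 and 3.81 against 9.75 and 10.3, and a body of 16.9% and 14.1% against 43.1% and 43.3% (−1.43 ± 0.19, adjusted p = 0.0194). PCCB, a subunit of propionyl-CoA carboxylase, lost its window, with folds of 3.56 and 2.91 in untreated cells. The window of the fatty acid receptor FFAR3 held no region in any of the 4 libraries.

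Lists with the lowest lost shares were those of immediate early genes, the proteasome and the cytosolic ribosome. The lost share fell with the fold in untreated cells, as given above. Lists were not compared with windows of like fold, so a difference between gene families beyond fold was not tested. Of immediate early and AP-1 genes, 1 of 14 windows was lost and 12 were held in all 4, and 4 of 16 bodies were lower. FOS had folds of 15.2 and 10.9 in NaPr and 15.2 and 19.7 in untreated cells, and a body of 75% and 65.2% against 73.7% and 93.7%, so its groups overlapped in body coverage (adjusted p = 0.314). FOSL1 had folds of 7.68 and 5.27 against 5.92 and 8.75. KLF2, a Krüppel-like factor, was the one lost, with folds of 5.43 and 4.72 in untreated cells. Proteasome genes lost 4 of 35 windows. Cytosolic ribosomal protein genes lost 9 of 73 windows, but 49 of 78 of their bodies were lower, with a median difference of −1.86.

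Mitochondrial ribosomal protein genes lost 29 of 74 windows, complex I genes 11 of 34 and zinc finger genes named ZNF 154 of 334. ER stress genes lost 6 of 18 windows and 4 of 20 bodies were lower. DDIT3, a transcription factor of the unfolded protein response, had a body of 87.2% and 83.5% against 86.7% and 87.2% (adjusted p = 0.790), whereas CALR, a chaperone of the ER, had 0% and 2.28% against 23.4% and 31.5% (−3.96 ± 0.69, adjusted p = 0.0319). Adhesion and actin genes lost 10 of 22 windows and 13 of 25 bodies were lower. CTNND1, a catenin that binds cadherins, was gained, with folds of 2.85 and 2.34 in NaPr, although its body had 6.49% and 8.04% against 20.6% and 14.8% (adjusted p = 0.0626). TGF-beta and SMAD genes lost 6 of 16 windows and 7 of 16 bodies were lower, among them SMAD7, whose window held no region, with 1.58% and 0.806% against 36.1% and 28.1% (−3.93 ± 0.32, adjusted p = 0.00730).

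**Figure D4:**
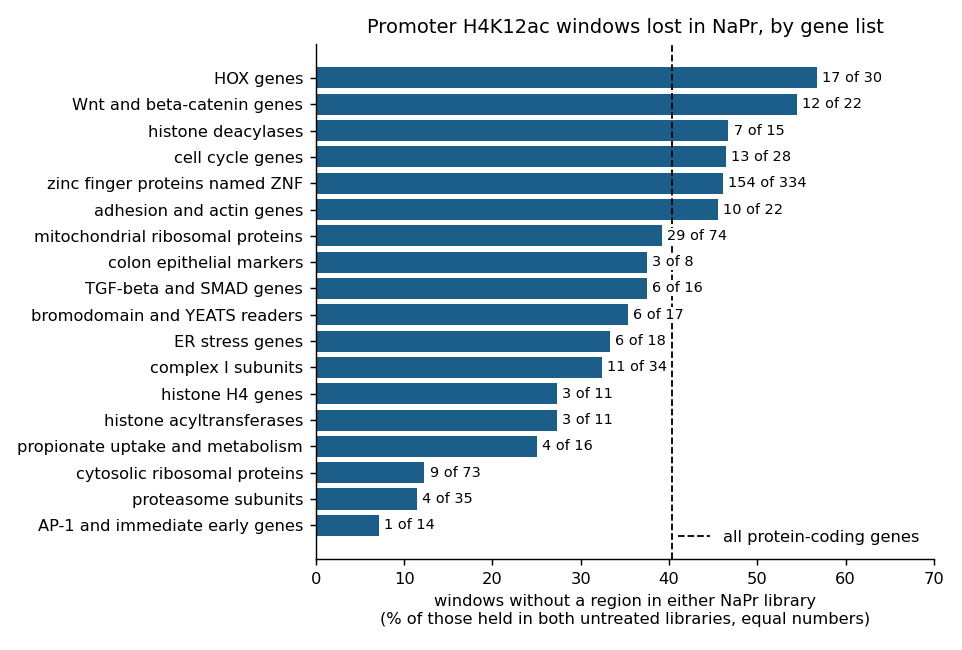
Percentage of promoter windows lost in NaPr (x axis), of those held in both untreated libraries with equal numbers, for each gene list with at least 8 such windows (y axis). Bars carry their counts, and the dashed line marks the 40.3% of all protein-coding genes, from which HOX genes (17 of 30) and immediate early genes (1 of 14) lie furthest on either side.

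The labelled cell type was checked by markers. Of 14 colon epithelial markers, 8 held a window in both untreated libraries and 4 in both NaPr libraries with equal numbers. With all regions these counts were 9 and 4. The 4 held in all libraries were EPCAM, KRT8, KRT18 and KRT19, which mark simple epithelium, and KRT8 and KRT18 share a window. CDX1, KRT20 and TFF3 had no region at their windows in any library. Of 12 markers of other cell types, 1 (SYP) was held in both untreated libraries and none in both NaPr libraries with equal numbers. With all regions, 3 of the 12 were held in both untreated libraries and none in both NaPr libraries. PTPRC, ALB, INS and MYH7 had no region at their windows in any library. The body of PTPRC was covered over 0.153% and 0.490% in NaPr and 0% and 0% in untreated cells. Olfactory receptor genes, silent in colon, held no window in both untreated libraries with equal numbers and 3 with all regions. In both NaPr libraries, 2 of 400 were held in either setting. Of 54 with a fitted body (equal numbers), 1 was lower and 3 were higher, with a median of 1.46. Only these 54 of 400 passed the filter on mean coverage, which genes without coverage in untreated cells can pass only through the NaPr libraries, so nothing is read from this median.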

How the data were processed

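H4K12ac ChIP-seq of SW480 cells was analysed in 4 libraries, 2 per group. Per the labels and the methods of the study, formaldehyde cross-linked chromatin was sequenced, and the submitters' processing notes name cutadapt 1.8.1, Bowtie2 2.3.1, MACS2 2.1.0 and bcl2fastq 2.17.1. The authors called regions in each library alone. Which input served as control is not given in the sources used here. The deposited lists give a fold enrichment over local background, a −log10 p-value and a −log10 q-value per region. All 674653 of 674653 regions lay inside hg38 chromosomes. No reads were used, so no count test was run.

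Genes were those of GENCODE release 44. Windows spanned 1000 bp either side of the 5′ end, and bodies the gene with 1 kb either side. Equal numbers means the 130361 regions of each library with the highest −log10 p. Body coverage was tested with limma 3.58.1 (R 4.3.3) on log2(percent + 1) for genes with a mean of at least 1%, with Benjamini-Hochberg adjustment over all genes fitted. Single values were compared by two-sided exact permutation (scipy 1.17.1). On simulated coverage with equal numbers, 3.0% of 100 genes with a log2 change of 1 and 82.0% of 100 with a change of 2 were called, and 29 of 22316 unchanged genes. The changed genes were few and drawn from those of higher coverage, and the noise was normal with a spread smoothed on the mean. In the data 27.8% of genes were lower, so these rates may not hold for the fit itself. The local background was solved from fold and p of each region with a −log10 p of at most 15. A low percentile of it, divided by the shortest region width, stood in for depth.

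Named genes were protein-coding, with equal numbers: the 8 lost and 8 gained windows with the highest smaller −log10 p of the 2 libraries holding them, the 6 lost and 6 gained bodies of 10 kb or longer with the widest gap (3 gained bodies passed 5 percentage points), and members of 20 gene lists. Members and lists were chosen with earlier results of these data known. One of the 8 lost windows is not reported here by name.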

Additional observations from a re-analysis of the deposited data

How the results depend on the processing

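Counts here are over all 38899 genes. Among the values recomputed, 46 moved and 55 stayed close. Most are counts, which cannot change sign. Some differences not among these changed sign from all regions to equal numbers. The difference in median fold went from 0.0296 to −0.194, and away from windows from 0.0514 to −0.160. The difference in the share of summits in bodies only went from −0.465 to 2.69 percentage points. That in the number of summits away from windows went from −47066 to 12748. The number of lost windows (6811 with all regions, 6249 with equal numbers) stayed within 1.5 times, while that of gained windows (170 and 221) did not. A similar number did not mean the same genes. With the 20000 strongest regions, 3829 protein-coding windows were lost. Of the 4542 lost at equal numbers, 1806 (39.8%) were among them. Over all genes and with all regions, gained windows numbered 80 at q under 0.05, 311 without regions at input peaks and 30 with a fold of at least 3. The last setting was chosen after seeing the data. With equal numbers the gained windows numbered 349 with every transcript start, 51 with the 20000 strongest regions and 367 without regions at input peaks. Bodies lost by 5 points (9907 and 7890) numbered 5727 with a fold of at least 3 and 4150 with the 20000 strongest regions. Bodies gained (82 and 126) numbered 50 at q under 0.05, 126 without regions at input peaks and 24 with a fold of at least 3, and 45 with the 20000 strongest regions. Bodies higher by limma (191 and 280) numbered 63 with a fold of at least 3, 298 and 493 with no filter on low coverage, 101 at q under 0.05 and 102 with the 20000 strongest regions. With equal numbers the difference in median width went from −35.0 to −79.0 bp, and in summits at windows from −5.83 to −9.78 percentage points. The cause was not tested.

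Leaving out 1 library gave, with all regions, 8092 to 10143 lost and 249 to 1124 gained windows, 10550 to 12484 lost and 125 to 521 gained bodies, and 3190 to 9571 lower and 86 to 663 higher by limma. With equal numbers it gave 7352 to 9169, 306 to 1296, 8529 to 9802, 188 to 630, 2784 to 6598 and 108 to 930. The lone library is assumed to vary like the other group, and a rule over fewer libraries is easier to meet.

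With the replicate number as a block, the replicate block fit gave 5638 lower and 94 higher bodies with all regions and 3951 and 136 with equal numbers. Deviations of same-numbered libraries correlated at r = 0.010 across genes (body coverage, equal numbers). With 2 libraries a group, this value cannot show whether same-numbered libraries shared a culture or handling.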
